A study of Homo sapiens with 12 samples.

Results

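The enzymes that write histone H3 lysine 9 (H3K9) methylation and the proteins that read it were followed in all 12 libraries of this RNA-seq series. The 10 genes were taken by symbol from the deposited count table, which holds 36502 genes: EHMT1, EHMT2, SUV39H1, SUV39H2, SETDB1 and SETDB2, which encode methyltransferases or related SET-domain proteins, CBX1, CBX3 and CBX5, which encode the HP1 proteins, and TRIM28, which encodes the corepressor KAP1. Each symbol matched 1 gene, and all 10 passed the filter on low counts that left 17262 genes for testing. The rule reads the symbol alone.

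Methylated H3K9 marks silent chromatin, and its dimethylated form is abundant in the chromatin that lies against the nuclear lamina. EHMT2 (G9a) and EHMT1 (GLP) act as a heterodimer and deposit mono- and dimethylation in euchromatin, SUV39H1 and SUV39H2 trimethylate H3K9 in pericentromeric heterochromatin, and SETDB1 is brought to zinc-finger target sites by KAP1. The HP1 proteins bind the methylated lysine through their chromodomain: HP1 alpha (CBX5) and HP1 beta (CBX1) are found mainly in heterochromatin, and HP1 gamma (CBX3) also in active genes. The study that produced these libraries asked how contacts between the genome and the lamina relate to H3K9 dimethylation.

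RNA came from HT1080, a human fibrosarcoma cell line, in 2 clones. The GFP clone carries the m6A-Tracer, a protein that recognises DNA methylated on adenine and is fused to GFP, and the VP16 clone carries the tracer fused to the VP16 activation domain. Uninduced cells of each clone were kept for 4 days in doxycycline at 50 ng/ml. Tracer cells had 3 days of doxycycline followed by 24 h without it, and tracer cells with Dam-LaminB1 had the same schedule with 500 nM Shield1 in the hours without doxycycline, which induces a fusion of the Dam adenine methyltransferase to lamin B1. Each of the 6 groups had 2 libraries. Withdrawal of doxycycline and expression of the tracer always came together and cannot be told apart, and since each tracer was carried by 1 clone, tracer type and clone cannot be told apart either. The series calls the second library of each group a biological replicate, but no label says that the cultures were separate. The p-values set a difference between groups against the spread between libraries of the same group, pooled over the groups. That spread may reflect technical variation.

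Libraries held 18774905 to 24827396 counted reads. The library titles reuse 6 index sequences, so that the libraries form 2 sets with 1 library of every group, here index sets 1 and 2. On the first principal component (45.4% of the variance), 2 libraries stood apart, the GFP tracer library of index set 1 at -78.25 and the GFP tracer library with Dam-LaminB1 of the same set at -87.01. In these 2 libraries DDIT3 and ASNS, targets of the integrated stress response, were at 93.6 and 77.4 CPM (counts scaled to a common library total) and at 341 and 420 CPM, against 4.74 to 8.12 CPM and 43.3 to 108 CPM in the other 10. LMNB1, the gene of lamin B1, was at 36.9 and 29.5 CPM in these libraries and at 122 to 203 CPM in the other 10. Markers of fibroblast-like cells summed to 4367 to 7520 CPM in every library, while 4 epithelial markers summed to at most 1.06 CPM, 4 blood markers to at most 0.448 CPM and 4 neural markers to 8.18 to 16.6 CPM.

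TRIM28 and the HP1 genes were the most abundant transcripts of the group, and SETDB2 and SUV39H1 the least. Levels of different genes are given as CPM per kb of exon, the union of all annotated exons of the gene in GENCODE v29. TRIM28 had a median of 224 CPM per kb over the 12 libraries, with a range of 133 to 265. CBX3 followed with 51.6 (40.3 to 55.1) and CBX1 with 34.0 (21.8 to 37.6) CPM per kb. The ranges of these 3 genes did not overlap with each other or with those of the other 7. CBX5 had a median of 14.5 CPM per kb (12.3 to 17.3), EHMT2 of 13.15 (5.76 to 14.85) and SUV39H2 of 7.29 (4.57 to 8.24). SETDB1 had 4.19 (3.65 to 5.37), EHMT1 3.99 (2.53 to 4.22), SUV39H1 3.02 (1.16 to 3.87) and SETDB2 1.46 CPM per kb (1.18 to 2.51). From CBX5 down, the ranges of neighbours in this order overlapped. The order depends on the exons counted: over exons of protein-coding transcripts only, an alternative added after the data were seen, EHMT2 had a median of 22.6 CPM per kb and stood above CBX5 (17.8), and EHMT1 had 7.30 and stood above SETDB1 (5.89).

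**Figure D1:**
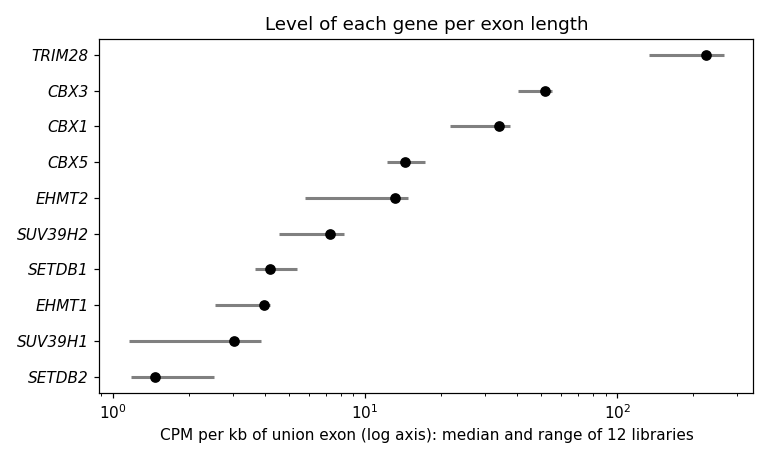
Level of each gene in CPM per kb of union exon on a log axis. Points are medians and grey lines the lowest to the highest of the 12 libraries. TRIM28 lies above all others at a median of 224 CPM per kb, and SETDB2 is lowest at 1.46.

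In the GFP clone, inducing the tracer was followed by unlike values in the 2 index sets, and no gene of the 10 passed the test. In index set 1, 8 of the 10 genes were lower in both induced libraries than in the uninduced library, and the exceptions, SETDB1 and SETDB2, were higher in both. In index set 2, 7 of the 10 were higher in both induced libraries, EHMT1 was lower in both, and CBX3 and CBX5 were mixed. Among all genes tested, 41.2% were lower and 44.8% higher in both induced libraries of index set 1, and 32.8% were lower and 35.9% higher in both of index set 2. In bulk RNA, fewer cells with a transcript and less RNA per cell cannot be told apart.

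EHMT2, which encodes G9a, was at 95.2 CPM in the uninduced GFP library of index set 1, at 54.9 with the tracer and at 42.0 with the tracer and Dam-LaminB1. In index set 2 the same conditions gave 99.98, 108 and 105 CPM. The 2 induced libraries of index set 1 thus held the lowest EHMT2 levels of the 12. Within index set 1 the log2 ratio of tracer to uninduced was -0.80, with a 95% counting interval of -0.90 to -0.69 that covers counting error only. Of all genes tested, 7.2% had a lower ratio there. Within index set 2 the ratio was 0.11 (0.032 to 0.20).

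EHMT1, which encodes the partner GLP, went from 87.7 CPM to 59.5 and 56.2 CPM in index set 1, and stood at 93.7, 89.6 and 91.4 CPM in index set 2. The gap between sets was smaller for EHMT1 than for EHMT2: the CPM ratio of EHMT2 to EHMT1, in which exon length cancels between libraries, was 0.923 and 0.747 in the 2 induced GFP libraries of index set 1 and 1.07 to 1.21 in the other 10 libraries.

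SUV39H1 was at 10.9 CPM in the uninduced GFP library of index set 1, at 4.66 with the tracer and at 3.91 with Dam-LaminB1. In index set 2 it was at 9.40, 11.3 and 10.2 CPM. Its log2 ratios to uninduced in index set 1, -1.22 (-1.58 to -0.87) with the tracer and -1.48 (-1.83 to -1.13) with Dam-LaminB1, were the lowest of the 10 genes, and 2.55% and 2.18% of all genes tested had lower ones. SUV39H2 was at 28.1, 18.3 and 16.3 CPM in index set 1 and at 26.0, 28.0 and 29.1 CPM in index set 2. As with EHMT2, the low values were those of the 2 induced libraries of index set 1.

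SETDB1 and SETDB2 went the other way in index set 1. SETDB2, a SET-domain protein related to SETDB1, was at 8.83 CPM uninduced, 16.8 with the tracer and 16.2 with Dam-LaminB1, log2 ratios of 0.93 (0.67 to 1.19) and 0.88 (0.63 to 1.13). In index set 2 it was at 7.89, 8.82 and 9.70 CPM, ratios of 0.16 (-0.13 to 0.46) and 0.30 (0.018 to 0.58). The tracer libraries were therefore above the uninduced library in both sets, with the larger gap in index set 1. SETDB1, which makes H3K9 trimethylation together with KAP1, was at 27.0, 38.1 and 36.8 CPM in index set 1, a log2 ratio of 0.50 (0.34 to 0.65) with the tracer. It was at 29.2, 29.4 and 30.4 CPM in index set 2, a ratio of 0.011 (-0.14 to 0.17).

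TRIM28 was at 973 CPM in the uninduced GFP library of index set 1, at 677 with the tracer and at 538 with Dam-LaminB1, and at 851, 903 and 866 CPM in index set 2. Within index set 1 it therefore ran opposite to SETDB1, the enzyme its protein recruits. The HP1 genes had smaller gaps. CBX1 was at 101, 75.1 and 67.4 CPM in index set 1 and at 111, 115 and 116 CPM in index set 2. CBX3 was at 235, 193 and 187 CPM against 253, 256 and 252 CPM. CBX5 had the smallest gap of the 10 genes between tracer and uninduced in index set 1, with 214, 200.4 and 184 CPM there, a log2 ratio of -0.094 (-0.15 to -0.033), and 258, 251 and 259.8 CPM in index set 2.

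**Figure D2:**
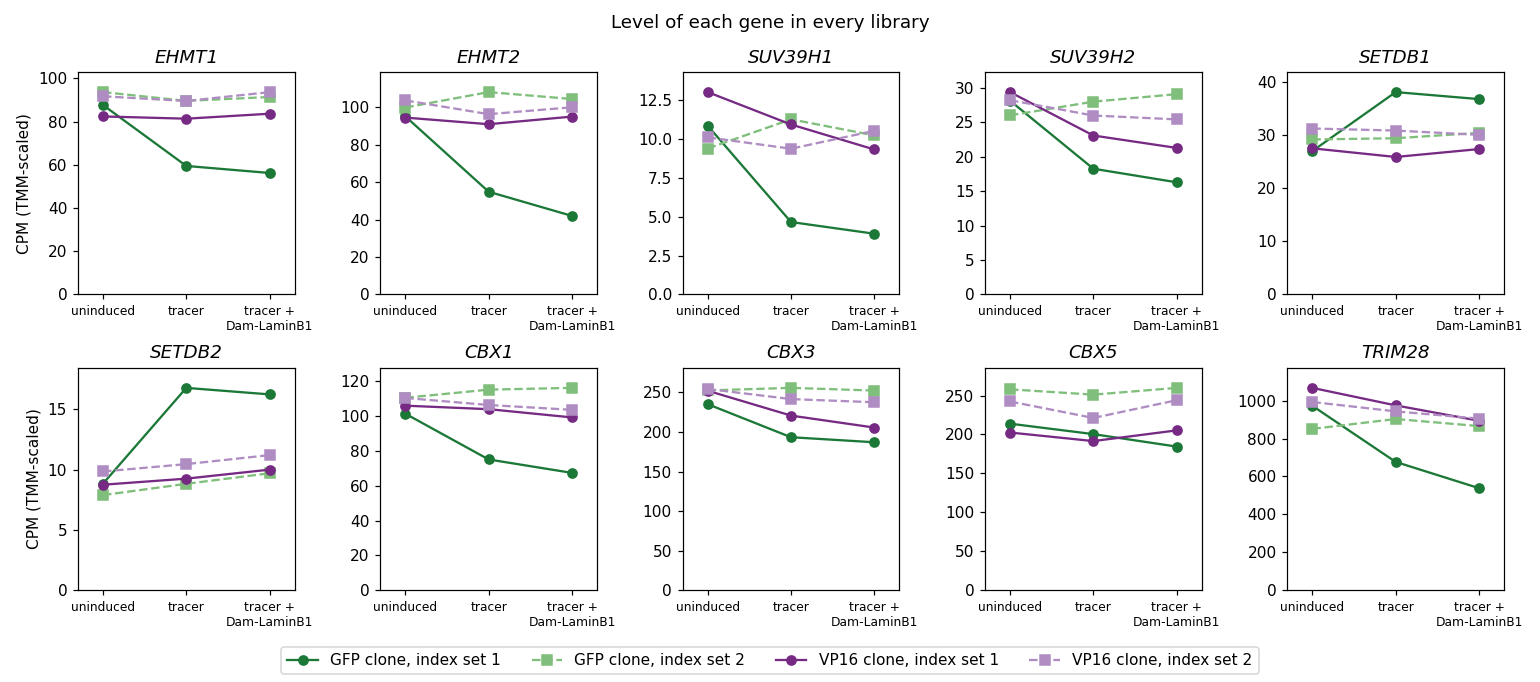
TMM-scaled CPM of the 10 genes (y axes from 0, 1 panel per gene) in the uninduced, tracer, and tracer with Dam-LaminB1 libraries. Each line joins the 3 libraries of 1 clone and 1 index set, with no error bar because each point is 1 library. The GFP clone of index set 1 departs from the other 3 lines, for example for EHMT2 at 54.9 and 42.0 CPM.

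Fitted over both index sets, these differences were within the spread between libraries. In edgeR's quasi-likelihood model of all 12 libraries, the tracer comparison in the GFP clone gave a log2 difference of -0.26 ± 0.40 (SE) for EHMT2, -0.35 ± 0.48 for SUV39H1, 0.27 ± 0.18 for SETDB1 and 0.61 ± 0.33 for SETDB2, each with an adjusted p of 1. No gene was called (0% of 17262), and 125 genes had an unadjusted p under 0.05, none of them among the 10. DESeq2 and limma-voom called 0 of the 10 as well. For the tracer with Dam-LaminB1 against uninduced, EHMT2 gave -0.41 ± 0.40, SUV39H1 -0.52 ± 0.48, TRIM28 -0.38 ± 0.22 and SETDB2 0.63 ± 0.32 (edgeR adjusted p = 0.93 for each), again with 0% of genes called. Between the tracer with Dam-LaminB1 and the tracer alone, 0% were called too, and the 10 genes lay between -0.17 and 0.02. The signs for EHMT2 and SUV39H1 rest on the 2 libraries of index set 1. Without them and with the index set in the model, the tracer differences were 0.11 for EHMT2 and 0.24 for SUV39H1. Those of SETDB1 and SETDB2 were -0.013 and 0.04. That fit holds only 1 library in each induced GFP group, so these differences have no spread of their own.

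**Figure D3:**
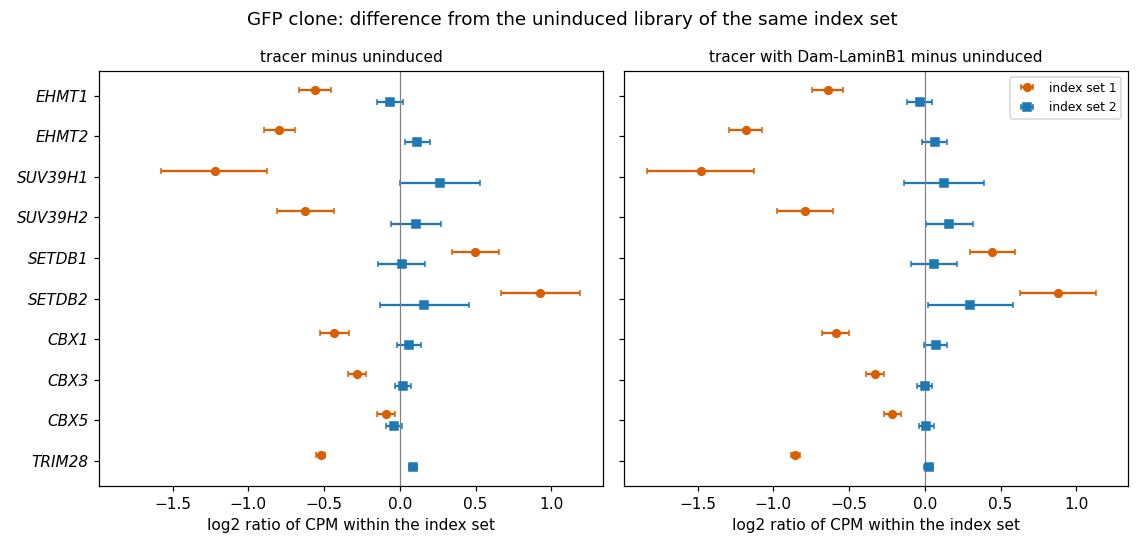
Log2 ratio of CPM to the uninduced library of the same index set in the GFP clone, for the tracer (left) and the tracer with Dam-LaminB1 (right). Bars are 95% counting intervals, which cover counting error only. In index set 1, 8 genes lie below 0 and SETDB1 and SETDB2 above it, while in index set 2 no gene goes beyond -0.064 on the low side or 0.30 on the high side.

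Cell cycle and stress genes also differed in the same 2 libraries. All 15 S phase genes of a list of replication factors and all 12 mitosis genes were lower in both induced GFP libraries of index set 1 than in the uninduced one, with median log2 differences of -0.95 and -1.69 for S phase and -1.06 and -1.40 for mitosis. All 8 integrated stress genes were higher in both, with medians of 2.68 and 2.77. In index set 2, 0 of 15 S phase genes were lower in both and 9 were higher in both, with medians of 0.096 and 0.036. All 12 mitosis genes were higher in both there, with medians of 0.092 and 0.086. Of the 8 stress genes 7 were lower in both, and the stress medians were -0.16 and -0.11. Among all genes tested, 41.2% were lower and 44.8% higher in both libraries of index set 1, and 32.8% and 35.9% in index set 2. The part of these programmes in the values of the methyltransferase and HP1 genes was not tested.

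Partners of the 10 genes were lower in some cases and higher in others in the same libraries. Of 14 HP1 partners, 9 were lower and 5 higher in both induced GFP libraries of index set 1, where 41.2% of all genes tested were lower and 44.8% higher. CHAF1A, a subunit of the CAF-1 chaperone that carries HP1 to replication sites, was at 115 CPM uninduced and 32.2 and 25.9 CPM induced, and LBR, the lamin B receptor that binds HP1 at the nuclear envelope, was at 124 CPM uninduced and 75.1 and 65.5 CPM induced. LRIF1, an HP1-binding partner of SMCHD1, was among the 5 that were higher. All 4 G9a/GLP partners were higher in both, where EHMT1 and EHMT2 were lower. Their log2 differences of tracer from uninduced were 0.066 (WIZ), 0.115 (ZNF644), 0.315 (CDYL) and 0.224 (CDYL2). In index set 2, CDYL and CDYL2 were lower in both induced libraries and WIZ and ZNF644 higher. Of 9 partners of SETDB1, KAP1 and the HUSH complex, 5 were lower and 3 higher, and of 11 H3K9 demethylases 5 were lower and 5 higher. In index set 2, 1 of 14 HP1 partners was lower in both induced libraries and 10 were higher. CHAF1A, LBR and LRIF1 were picked as examples after their values were seen, and no gene of these lists passed the test in any comparison of induction in the model of all 12 libraries (0 of 17262 genes called in each).

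The promoters of SETDB1 and SETDB2, the 2 genes that were higher in the induced GFP libraries of index set 1, are shown beside those of EHMT2 and SUV39H1, the 2 with the lowest tracer ratios there. Each sequence is the 250 bases before a RefSeq start in GRCh38.p14, 5′ to 3′ on the strand of the gene, and 9 of the 10 genes matched a window of that table. Capitals mark matches, on either strand, to the E-box CACGTG, the CCAAT box CCAAT, the GC box GGGCGG, the E2F elements TTTGGCG and TTTCGCG and the C/EBP-ATF element TGATGNAA. Where RefSeq gives several starts, the downstream one is shown. The windows are chr6:31897699-31897948 (minus strand) for EHMT2, chrX:48696484-48696733 (plus) for SUV39H1, chr1:150926113-150926362 (plus) for SETDB1 and chr13:49444024-49444273 (plus) for SETDB2.
EHMT2: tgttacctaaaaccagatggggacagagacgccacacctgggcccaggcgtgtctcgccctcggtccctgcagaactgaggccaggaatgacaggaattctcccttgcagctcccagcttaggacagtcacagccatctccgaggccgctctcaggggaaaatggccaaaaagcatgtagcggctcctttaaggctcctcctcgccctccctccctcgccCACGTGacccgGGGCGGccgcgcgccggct
SUV39H1: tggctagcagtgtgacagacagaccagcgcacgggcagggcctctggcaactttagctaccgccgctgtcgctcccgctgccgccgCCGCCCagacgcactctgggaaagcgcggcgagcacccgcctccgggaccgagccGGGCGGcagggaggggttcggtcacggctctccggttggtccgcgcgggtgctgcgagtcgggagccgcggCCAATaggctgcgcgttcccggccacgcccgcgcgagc
SETDB1: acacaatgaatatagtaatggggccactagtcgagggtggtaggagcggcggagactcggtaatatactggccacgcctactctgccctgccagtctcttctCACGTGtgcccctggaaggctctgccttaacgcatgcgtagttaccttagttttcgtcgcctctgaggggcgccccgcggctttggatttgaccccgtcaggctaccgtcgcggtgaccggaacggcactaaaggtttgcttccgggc
SETDB2: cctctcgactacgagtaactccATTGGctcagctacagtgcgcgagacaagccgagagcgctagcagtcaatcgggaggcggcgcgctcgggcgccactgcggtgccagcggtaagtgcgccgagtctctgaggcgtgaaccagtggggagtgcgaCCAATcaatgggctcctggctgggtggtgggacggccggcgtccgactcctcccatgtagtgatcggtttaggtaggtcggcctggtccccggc
An E-box lay in the windows of EHMT2 and SETDB1, which 6.34% of 35116 RefSeq windows of this length also held. A CCAAT box lay in those of SUV39H1 (1 match) and SETDB2 (2 matches), against 32.0% of all windows, and a GC box in those of EHMT2 (1) and SUV39H1 (2), against 42.6%. The E2F elements (1.59% and 1.1% of all windows) and the C/EBP-ATF element (3.14%) matched none of the 13 windows of the 9 genes. Among the genes shown, the E-box and the CCAAT box were each in 1 lower and 1 higher gene. The GC box was in both lower genes shown and in neither higher gene. Of the other genes lower in both induced GFP libraries of index set 1, EHMT1, SUV39H2 and CBX3 also held a GC box. The window of CBX1 did not, and CBX5 held it in its most upstream window only. The upstream window of SUV39H1 had no GC box either, so this contrast depends on the genes and starts shown.

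In the VP16 clone the question was the same, which transcripts differ with the tracer and with Dam-LaminB1. TRIM28, CBX3, CBX1 and SUV39H2 were lower with the tracer than uninduced, and lower again with Dam-LaminB1, in both index sets. SETDB2 was higher at each step in both sets. By 95% counting intervals, TRIM28 alone went beyond counting error at every step in both sets. Every step of CBX1 and SETDB2 was within it. For SUV39H2 only the first step in index set 1 was beyond it, and for CBX3 all but the second step in index set 2. Steps down in both sets occurred in 9.02% of all genes tested and steps up in 7.77%.

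TRIM28 was at 1068, 975 and 894 CPM in the uninduced, tracer, and Dam-LaminB1 libraries of index set 1 and at 993, 944 and 905 CPM in index set 2. CBX3 was at 252, 221 and 206 CPM and at 254, 242 and 238 CPM. SUV39H2 was at 29.4, 23.1 and 21.3 CPM and at 28.2, 26.0 and 25.4 CPM. For each of these 3 genes the gap was wider in index set 1, with log2 ratios of Dam-LaminB1 to uninduced of -0.26, -0.30 and -0.47 there and -0.13, -0.098 and -0.15 in index set 2. CBX1 was at 106, 104 and 99.2 CPM and at 110.4, 106 and 104 CPM. SETDB2 was at 8.75, 9.25 and 10.00 CPM and at 9.84, 10.5 and 11.2 CPM. For these 5 genes the Dam-LaminB1 and uninduced libraries did not overlap, as was the case for 15.4% of all genes on the low side and 14.5% on the high side.

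The other 5 genes did not step in 1 direction in both sets, and EHMT1, EHMT2 and CBX5 were lowest with the tracer alone in both. The share of all genes tested with that order was not counted. For EHMT1 the log2 ratios of tracer to uninduced were within counting error, at -0.018 (-0.119 to 0.082) and -0.035 (-0.125 to 0.055). That of EHMT2 was within it in index set 1 only, and those of CBX5 were beyond it in both sets. The rise from the tracer to Dam-LaminB1 was within counting error in both sets for EHMT1 and EHMT2, and beyond it in both for CBX5. EHMT2 was at 94.6, 91.0 and 95.1 CPM in index set 1 and at 103.8, 96.4 and 100.1 CPM in index set 2, and EHMT1 at 82.4, 81.4 and 83.7 CPM and at 91.7, 89.6 and 93.7 CPM. Their log2 ratios of Dam-LaminB1 to uninduced lay between -0.052 and 0.030 in both sets. CBX5 was at 202, 191 and 205 CPM and at 242, 221 and 244 CPM. SETDB1 was at 27.5, 25.9 and 27.4 CPM and at 31.2, 30.8 and 30.03 CPM. SUV39H1 was at 13.0, 10.9 and 9.34 CPM in index set 1, but at 10.1, 9.39 and 10.5 CPM in index set 2.

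The model of all 12 libraries called no gene in the VP16 clone for the tracer against uninduced (0%), for Dam-LaminB1 against the tracer (0%) or for Dam-LaminB1 against uninduced (0% of 17262, with 189 genes at an unadjusted p under 0.05 and none of the 10). For the last, TRIM28 gave -0.20 ± 0.22, CBX3 -0.19 ± 0.18 and SUV39H2 -0.30 ± 0.28 (edgeR adjusted p = 1 for each). That model shares 1 estimate of spread with the GFP libraries that stood apart. In a fit to the 6 VP16 libraries with the index set in the model, added after the data were seen, 1573 of 16139 genes (9.75%) were called for Dam-LaminB1 against uninduced, and 3 of the 10 with them, all lower: TRIM28 at -0.19 ± 0.04 (edgeR adjusted p = 0.0042), CBX3 at -0.19 ± 0.05 (0.0085) and SUV39H2 at -0.30 ± 0.08 (0.019). These 3 calls were lost when the uninduced library of index set 1 was left out (277 genes called, adjusted p 0.14 to 0.55) or the Dam-LaminB1 library of index set 1 (375 genes, 0.079 to 0.31), and 0 genes were called in the same 6 libraries without the index set. In the 12 libraries less the 2 that stood apart, with the index set in the model, 56 of 17558 genes (0.319%) were called and none of the 10, with TRIM28 and CBX3 at an edgeR adjusted p of 0.10.

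Replication genes were lower in the same fit. Of 15 S phase genes 14 were called lower, with a median of -0.34, and of 12 mitosis genes 5 were called lower. Among the partners, UHRF1, which reads H3K9 methylation and maintains DNA methylation, was called lower at -0.29 ± 0.06 (edgeR adjusted p = 0.004), as was CHAF1A at -0.21 ± 0.06 (0.029), and these were the 2 called of 14 HP1 partners. MECOM, another candidate H3K9 methyltransferase, was called lower, and the demethylase KDM4B was the 1 of 11 demethylases called, at 0.21 ± 0.06 (0.02). These 4 were all the calls among the 40 partner, methyltransferase and demethylase genes (10.0%), beside 9.75% of all genes called in that fit. In the 12 libraries less the 2 that stood apart, with the index set in the model, 5 of the 15 S phase genes were called lower, and 0 of 12 mitosis genes and 0 of the 40 partner, methyltransferase and demethylase genes were called, with UHRF1 at an edgeR adjusted p of 0.28 and CHAF1A at 0.29. The part of replication in the lower TRIM28, CBX3 and SUV39H2 was not tested.

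**Figure D4:**
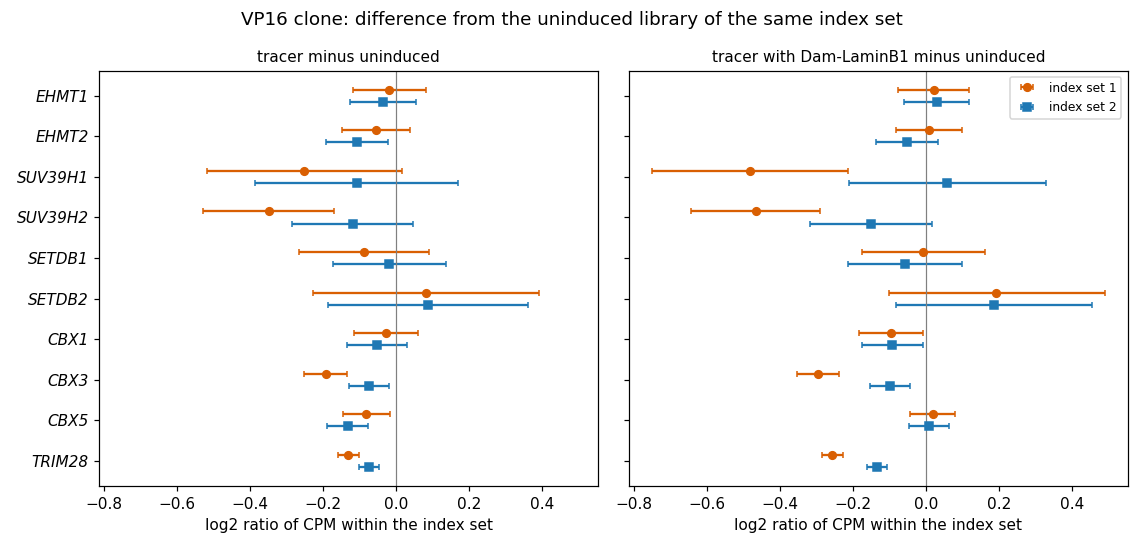
Log2 ratio of CPM to the uninduced library of the same index set in the VP16 clone, for the tracer (left) and the tracer with Dam-LaminB1 (right). Bars are 95% counting intervals, which cover counting error only. TRIM28, CBX3 and SUV39H2 lie below 0 in both sets and further below in index set 1, at -0.26, -0.30 and -0.47 with Dam-LaminB1.

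Whether the effect of the tracer or of Dam-LaminB1 differed between the clones was tested as an interaction. No gene was called for either (0% of 17262 each), with or without the index set in the model. For both interactions the 10 genes had a median SE of 0.36 on the log2 scale without the index set and 0.283 with it.

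Between uninduced cells of the 2 clones, TRIM28 was higher in the VP16 clone in both index sets, at 1068 against 973 CPM and at 993 against 851 CPM. SUV39H1, SUV39H2, SETDB1 and CBX3 were also higher in both sets, and EHMT1 and CBX5 were lower in both. Only TRIM28 and CBX5 went beyond counting error in both sets. The share of all genes tested with 1 direction in both sets was not counted. In the model of all 12 libraries the uninduced difference of TRIM28 was 0.18 ± 0.22 (edgeR adjusted p = 1), with 48 of 17262 genes (0.278%) called and none of the 10. Over the 3 conditions together 1318 genes (7.64%) were called, and 3609 (20.9%) with the index set in the model, and neither held any of the 10, with TRIM28 at 0.27 ± 0.13 (edgeR adjusted p = 0.23) in the first. Without the 2 GFP libraries that stood apart and with the index set in the model, 3685 of 17558 genes (21.0%) were called between the uninduced clones, TRIM28 among them at 0.16 ± 0.05 (edgeR adjusted p = 0.038), and 5855 (33.3%) over the 3 conditions. In the latter CBX5 was the 1 of the 10 called, lower in the VP16 clone at -0.13 ± 0.03 (adjusted p = 0.0089), and it had been at -0.07 ± 0.12 over all 12 libraries. TRIM28 over the 3 conditions was at 0.07 ± 0.04 in that fit (edgeR adjusted p = 0.20). A share of 1 in 10 is below the share of all genes called.

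Among the partners, SUV420H1, an H4K20 methyltransferase that HP1 brings to heterochromatin, was lower in the VP16 clone over the 3 conditions at -0.60 ± 0.09 (edgeR adjusted p = 0.0056), the 1 call among the 5 lists without the index set. With the index set in the model, SUV420H1 and ATRX, a chromatin remodeller that binds HP1 (-0.31 ± 0.06), were lower and SMCHD1 (0.34 ± 0.08) was higher. CDYL, a G9a partner, was lower at -0.36 ± 0.10, while PPHLN1, a HUSH subunit, PRDM2 and KDM1A, the lysine demethylase LSD1, were higher at 0.31 ± 0.09, 0.26 ± 0.06 and 0.30 ± 0.09. Their edgeR adjusted p ran from 0.0021 to 0.048. These 7 were all the calls among the 40 genes of the 5 lists (17.5%), beside 20.9% of all genes called in that fit.

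More genes were called between index sets than between conditions, but these comparisons differ in size. The first sets 6 libraries against 6, and each comparison of induction sets 2 against 2. With the index set in the model, the median SE of the 10 genes was 0.116 between index sets. It was 0.2 for the tracer in the GFP clone, so the counts of calls are not directly comparable. With group and index set in the model no gene was called in any comparison of induction, while 4869 of 17262 genes (28.2%) differed between the sets, and 3 of the 10 with them, all higher in index set 2: CBX5 by 0.30 ± 0.05 (edgeR adjusted p = 0.0046), EHMT1 by 0.31 ± 0.10 (0.046) and CBX3 by 0.22 ± 0.07 (0.045). CBX5 was at 184 to 214 CPM in the 6 libraries of index set 1 and at 221 to 259.8 CPM in the 6 of index set 2, with no overlap. With 1 library left out at a time, 1 to 2 of the 10 genes were called. Without the 2 libraries that stood apart 6947 of 17558 genes (39.6%) were called and 4 of the 10: CBX5 at 0.25 ± 0.03, EHMT1 at 0.14 ± 0.04, CBX3 at 0.12 ± 0.04 and SETDB1 at 0.18 ± 0.05, which over all 12 libraries had been at 0.005 ± 0.098. With 3 of 10 and 4 of 10, the shares of the members called were near those of all genes. All partner genes called between the sets over all 12 libraries were also higher in index set 2. They were 2 of 4 for G9a/GLP, 2 of 9 for SETDB1, KAP1 and HUSH, 7 of 14 for HP1, 3 of 11 demethylases and both MECOM and PRDM2. Among them were ATRX at 0.55 ± 0.06, SMCHD1 at 0.63 ± 0.08, FAM208A (the HUSH subunit TASOR) at 0.52 ± 0.08 and KDM3B at 0.34 ± 0.06. These were 16 of the 40 list genes (40.0%), beside 28.2% of all genes. Of all genes called in that fit, 2173 were higher and 2696 lower in index set 2. The labels do not say what else differed between the sets.

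**Figure D5:**
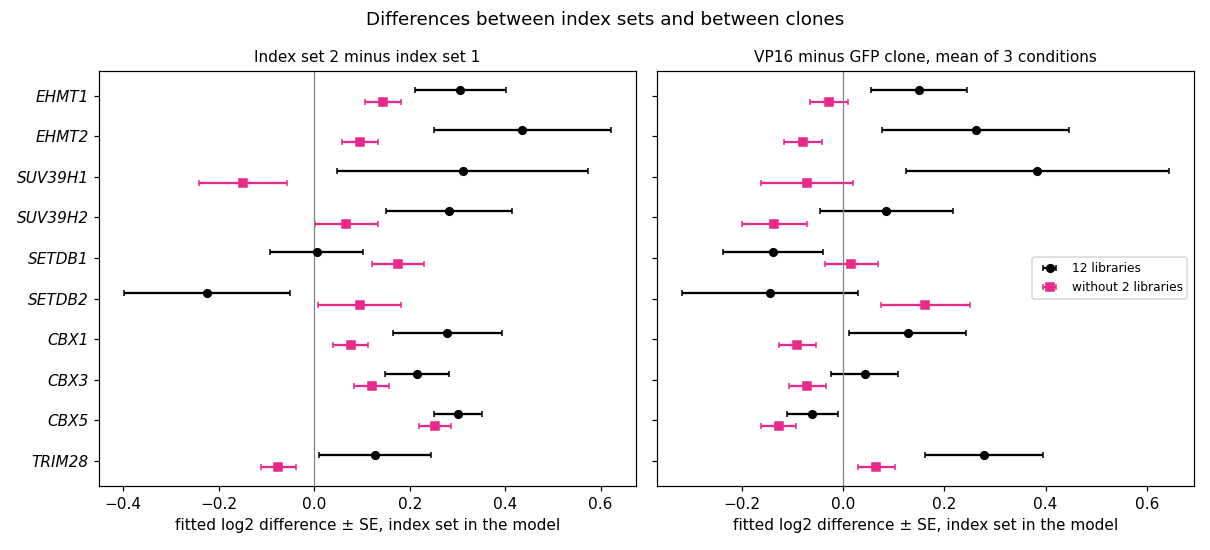
Fitted log2 difference ± SE between index sets (left) and between clones over the 3 conditions (right), with the index set in the model, for all 12 libraries and without the 2 GFP libraries of index set 1 that stood apart. CBX5 is higher in index set 2 in both fits (0.30 and 0.25), while 8 of the 10 clone differences, all but those of CBX5 and TRIM28, change sign between the fits.

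Across libraries the 10 genes fell into blocks, which again followed the 2 libraries. Over the 12 libraries the Pearson r of log2 CPM was negative for all 16 pairs of SETDB1 or SETDB2 with another member, down to -0.91 for SUV39H1 with SETDB2, and highest for EHMT2 with CBX1 (0.98) and EHMT1 with EHMT2 (0.97). Without the 2 libraries 8 of these 16 pairs were negative, EHMT1 with EHMT2 was at 0.72, and the highest was EHMT1 with CBX5 (0.92). The 12 points share clones, treatments and index sets, so the coefficients describe these libraries.

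The genes most like each member were found among 9625 genes with a mean of at least 10 CPM. Over 12 libraries they were RECQL4, CHTF18 and KIF20A for EHMT2 (r from 0.994 to 0.996), EEF2K, KCTD1 and FAM64A for EHMT1, CDCA8, RBMX and AURKB for SUV39H1 and PABPN1, GLRX5 and NDC80 for SUV39H2. For SETDB1 they were GART, GARS and TUBE1, for SETDB2 SPIRE1, CAMTA2 and POC5, and for TRIM28 HSP90AB1, BAG2 and EIF4A1. SAP30, LUC7L and TFDP1 followed CBX1, NRF1, NFYA and CTCF followed CBX3, and SLC36A4, SMC4 and KIAA1731 followed CBX5. The lowest of these 30 coefficients was 0.963. Over the 10 libraries without the 2 that stood apart, 5 of the 30 genes were again among the 3 most alike: CDCA8 and AURKB for SUV39H1, PABPN1 for SUV39H2, SPIRE1 for SETDB2 and HSP90AB1 for TRIM28.

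Some reads may be shared with neighbours, since the sources used here give neither the counting mode nor the use of strand. SUV39H2 (chr10:14920819-14946314) overlaps DCLRE1C over 27.3% of its span, SETDB1 (chr1:150898739-150937213) overlaps CERS2 over 10.8%, and CBX3 (chr7:26240782-26252976) overlaps HNRNPA2B1 over 3.02%, positions in GRCh37 from the deposited table. In a library HNRNPA2B1 had 15797 to 38816 reads against 3941 to 6341 for CBX3. CERS2 had 3105 to 4022 against 506 to 903 for SETDB1, and DCLRE1C 279 to 528 against 372 to 690 for SUV39H2. In the VP16 clone the mean of HNRNPA2B1 was 1556.5 CPM uninduced, 1434.9 with the tracer and 1351 with Dam-LaminB1. The part of shared reads in the values of CBX3, SETDB1 and SUV39H2 was not tested. The antisense genes that overlap EHMT2 and SUV39H1 had at most 1 and 5 reads in a library, and the one that overlaps CBX5 at most 44. TRIM28 (chr19:59055836-59062082) overlapped no other gene of the table. Of the HP1 pseudogenes in the table, 4 of CBX1, 5 of CBX3 and 1 of CBX5, the reads came to at most 0.66%, 0.5% and 0.14% of those of the parent gene.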

How the data were processed

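The authors deposited 1 table of read counts per Ensembl gene, whole numbers that were not normalized. Per the submitters' processing notes, TopHat 1.4.0, Bowtie 0.12.7, GRCh37 and HTSeq were used (its version, overlap mode and use of strand: not given in the sources used here). RNA was extracted with Trizol and made into TruSeq RNA libraries, per the labels' protocols.

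Counts were filtered with edgeR's filterByExpr (17262 genes left), scaled by TMM and fitted in edgeR 4.0.16 (R 4.3.3) with 1 coefficient per group over all 12 libraries, which leaves 6 residual degrees of freedom. A quasi-likelihood F test with Benjamini-Hochberg adjustment at 0.05 over all genes gave the calls, and the SE is the absolute log2 difference over the square root of F. Log2 CPM used a prior count of 2. Exon lengths came from GENCODE v29 on GRCh38. Total counts of 18774905 to 24827396 per library gave the members from 95 reads (SUV39H1) to 21922 reads (TRIM28) in a library.

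The members and lists were chosen with earlier results of these data known. Named genes were the 10 members, list genes called with or without the index set in the model (up to 4 per list and comparison), overlapping genes and pseudogenes, the 3 genes most alike to each member, and LMNB1, DDIT3 and ASNS; list genes given for the GFP clone and for the 6 VP16 libraries were chosen after their values were seen. Index sets pair the libraries: deviations from group means of libraries in 1 set correlated at 0.415 to 0.858 over 15 pairs of groups. Replicate libraries were not duplicates (chi-square per degree of freedom 19.55 to 126.3). Alternatives were RLE size factors, DESeq2 1.42.0, limma-voom (limma 3.58.1), fits to only the compared groups, 2 other filters on low counts, the replicate block, leaving out each library, and leaving out the 2 GFP libraries that stood apart. The scripts were tested on simulated data.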

Additional observations from a re-analysis of the deposited data

Results flagged for a closer look

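For 3 genes every library pair of 1 clone pointed one way and every pair of the other clone the opposite way. Of all genes tested, the share with such opposite signs was not counted. With 2 pairs per clone, agreement in sign is weak evidence, and whether random signs alone would give as many cases was not tested. SETDB1 was higher with the tracer in the GFP clone, at 0.50 and 0.011 on the log2 scale in index sets 1 and 2, and lower in the VP16 clone, at -0.088 and -0.018, a mean difference of -0.31 between clones. The fitted interaction was -0.32 ± 0.25 (edgeR adjusted p = 1). EHMT2 was lower with Dam-LaminB1 than with the tracer alone in the GFP clone, at -0.39 and -0.050, and higher in the VP16 clone, at 0.063 and 0.054, a mean difference of 0.28, and the fitted interaction was 0.21 ± 0.57 (edgeR adjusted p = 1). With Dam-LaminB1 against uninduced, EHMT1 was at -0.64 and -0.035 in the GFP clone and at 0.022 and 0.030 in the VP16 clone, a mean difference of 0.37. In the same comparison SETDB1 was at 0.45 and 0.060 in the GFP clone and at -0.007 and -0.056 in the VP16 clone, a mean difference of -0.28. The last 2 differences were not tested. In all 4 cases the values of index set 2 were within 0.1 of 0 in both clones.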

How the results depend on the processing

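Leaving out the 2 GFP libraries that stood apart left 1 library in each induced GFP group. It turned the fitted GFP tracer difference of EHMT2 to 0.16 (0.11 with the index set as replicate block) and of SUV39H1 to 0.16 (0.24). The Dam-LaminB1 difference of EHMT2 turned to 0.11 (0.060) and of SUV39H1 to 0.025 (0.10). With the block SETDB1 turned to -0.013 for the tracer. With the replicate block the same omission gave 1 gene called for the tracer in the GFP clone, the tracer in the VP16 clone, Dam-LaminB1 against tracer in each clone and the Dam-LaminB1 interaction, 56 for Dam-LaminB1 against uninduced in the VP16 clone, 3685 between uninduced clones (1 member) and 5855 over the 3 conditions (1 member). The 6 VP16 libraries with the replicate block, chosen after seeing the data, gave 139 genes for the tracer, 13 for Dam-LaminB1 against tracer and 1573 for Dam-LaminB1 against uninduced (3 members). Between the uninduced clones, 48 genes became 297 with DESeq2, 30 with limma-voom, 220 without a low-count filter, 21 with at least 5 CPM in 2 libraries, 327 with the replicate block, 129 without the 2 libraries and 1 with only the groups compared; over the 3 conditions, 1318 became 2201 with DESeq2 and 3609 with the block. The index-set difference of SETDB1 turned to -0.002 with limma-voom and -0.007 with the stricter filter.

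Leaving out 1 library at a time gave these ranges: for the GFP tracer EHMT2 -0.86 to 0.15, SUV39H1 -1.15 to 0.16 and 0 to 1 genes called; for Dam-LaminB1 against uninduced in the GFP clone EHMT2 -1.25 to 0.11 and SUV39H1 -1.40 to 0.025; for Dam-LaminB1 against tracer in that clone 0 to 1 genes; for the Dam-LaminB1 interaction EHMT2 -0.39 to 1.04; between uninduced clones 1 to 5 genes; over the 3 conditions 543 to 2221 genes, 0 to 1 members and CBX5 -0.15 to 0.025; between index sets 1 to 2 members and SETDB1 -0.027 to 0.096. The cause of these shifts was not tested. CPM without TMM scaling differed from the scaled values by -2.18% to 2.09%. Apart from leaving out libraries singly, 980 member values were recomputed, of which 882 kept their sign and side of the threshold and 91 changed sign, 21 of 770 where the 2 libraries were kept. With 2 libraries per group, differences of SUV39H1 and SETDB2, which had 95 to 245 and 161 to 399 reads per library, are also limited by counting error.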
